A study of Homo sapiens with 18 samples.

Results

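The data described here are the 12891 m6A peaks that the authors compared between A549 cells exposed to titanium dioxide (TiO2) and untreated A549 cells. Every peak of that comparison was kept, and the peaks were assigned by the authors to 8706 genes. The comparison of black phosphorus quantum dots (BPQD) with the same untreated cells holds 14903 peaks, so the TiO2 peaks are 12891 of 27794 in all. A549 is a line derived from a human lung adenocarcinoma. The TiO2 cells received 100 mg/L TiO2 for 24 h, and the control cells received no particles and were otherwise grown in the same medium. Each group had 3 libraries of input RNA and 3 of RNA precipitated with an antibody against m6A, and the series asks whether nanomaterials alter RNA methylation in these cells. The peak values (position, log2 fold change of m6A enrichment for TiO2 over control, p and FDR) are the authors' own, 1 value per peak with no value per library. They are therefore described, ranked and counted at an authors' p under 0.05, which is what called means for a peak, and no further test was put on them. Transcript levels are the input libraries' FPKM, a fragment count scaled to gene length and library size.

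N6-methyladenosine (m6A) is a methyl group that the METTL3-METTL14 complex, with WTAP and other partners, places on adenosines of nascent mRNA, mostly within DRACH motifs such as GGAC and mostly near stop codons, in 3′ UTRs and in long exons. FTO and ALKBH5 can remove it, and YTH-domain and other proteins bind it and influence splicing, export, translation and decay. Antibodies against m6A also bind m6Am, a related base that can stand next to the cap of an mRNA, so that signal at a transcript's first base cannot be assigned to m6A alone.

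Among peaks in the 5′ UTR class, the first bases of the transcripts can be read from RefSeq (GRCh38.p14). Of the genes with a peak, 5564 were matched by symbol to a RefSeq start, and 1209 peaks covered that start, 1158 of them in the 5′ UTR class. The first 30 bases are shown for the genes of the strongest start-covering peaks and for m6A enzymes and readers with such a peak, because this is where m6Am could stand. The first base is in capitals.
TPM2 (chr9:35689896-35689925, minus strand): Agtcccgctccgtcctcctcgcctgccacc
MSTO1 (chr1:155610218-155610247, plus strand): Gaggcgcggcggccccgtggagcagcgcag
MGAT2 (chr14:49620799-49620828, plus strand): Gcagttgcgggttgtcataacggtccccgc
METTL3 (chr14:21511311-21511340, minus strand): Attttccggttagccttcggggtgtccgcg
HNRNPA2B1 (chr7:26200717-26200746, minus strand): Agtagcagcagcgccgggtcccgtgcggag
RBM15 (chr1:110339377-110339406, plus strand): Gagactgtagaagagagagcaattggccaa
RBM15B (chr3:51391285-51391314, plus strand): Gcgccgagtccttttgtccaagatggcggc
ALKBH5 (chr17:18183828-18183857, plus strand): Gaggagcccgctaaggagcggcgctggcgg
The starts of TPM2, METTL3 and HNRNPA2B1 begin with A and the other 5 with G. In the first 50 bases, GGAC was found for RBM15 and ALKBH5 and not for the other 6. Over the 1141 genes with a start-covering peak, the first base was A in 52.0%, against 47.0% of the 5564 matched genes with a peak and 44.4% of the 35116 starts in the table. GGAC on the transcript's strand was found in the first 50 bases of 23.0% of the covered starts, against 20.5% of matched genes with a peak and 18.9% of all starts. Covered starts that begin with A were called higher under TiO2 in 237 of 593 cases and lower in 168, and those that begin with G were called higher in 185 of 424 and lower in 112. These are descriptions of RefSeq starts, and the start used in these cells was not measured.

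Hairpins of microRNAs lay inside 17 of the peaks at most 3000 bases wide. The mark can stand on primary microRNA transcripts, where HNRNPA2B1 is known to bind it and to assist processing, so the mature sequences are shown for the hairpins in the called peaks of smallest p, with the seed (bases 2 to 8) in capitals.
hsa-miR-1184: cCUGCAGCgacuugauggcuucc
hsa-miR-7106-5p: uGGGAGGAggggaucuuggg
hsa-miR-3652: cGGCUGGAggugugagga
hsa-miR-6821-3p: uGACCUCUccgcuccgcacag
hsa-miR-922: gCAGCAGAgaauaggacuacguc
hsa-miR-6869-5p: gUGAGUAGuggcgcgcggcggc
No seed was shared among the 24 mature forms of these hairpins. The peak over MIR1184-1, which lies in F8A1 and has near-identical copies, was lower under TiO2 (log2 fold change -0.63, the authors' p = 1.58e-27), and so were those over MIR7106 in DDX54 (-0.15, p = 1.95e-06), MIR3652 in HSP90B1 (-0.078, p = 3.31e-05), MIR6821 in PIM3 (-0.22, p = 7.24e-05) and MIR6869 in FKBP1A (-0.46, p = 0.000427). The peak over MIR922 in RUBCN was higher (0.33, the authors' p = 0.000275). The authors assigned 14 of the 17 hairpins to a microRNA gene, and the gene around it could be more abundant in input RNA. MIR922 had a mean of 0.126 FPKM and RUBCN 2.61 FPKM over the 9 input libraries, and MIR7106 had 0.00949 FPKM and DDX54 34.8 FPKM. No mature microRNA was measured.

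Several facts about the libraries bear on what follows. All 3 TiO2 and all 3 control input libraries expressed CDKN2A and CDKN2B, between 20.5 and 27.4 FPKM and between 9.75 and 10.9 FPKM, although A549 is known to lack both genes. AKR1B10, AKR1C1 and ALDH1A1, which A549 is known to express strongly, reached at most 1.14 FPKM. The keratins KRT8 and KRT18 were abundant, and the alveolar type II markers SFTPB, SFTPC and NKX2-1 stayed below 0.15 FPKM. Of the leukocyte markers, CD68 was the one above 1 FPKM, and the sum of that list was 17.6 to 23.1 FPKM under TiO2 and 11.2 to 13.2 FPKM in controls, while PTPRC and CD3E were near 0. The fibroblast sum was 5.52 to 6.07 FPKM under TiO2 and 7.36 to 7.73 FPKM in controls, and the endothelial sum 2.15 to 3.92 FPKM under TiO2 and 3.02 to 3.63 FPKM in controls. The part of these genes' cells in the results was not tested. The data thus go against the labelled line in these genes, and the cells are called by their label. The correlation between input libraries ran from 0.980 to 0.983 within groups and from 0.966 to 0.975 between groups. Read depth is unknown, and nothing in the labels says that the 3 libraries of a group came from separate cultures, so every p-value for input RNA reflects the spread of these libraries alone, which may be technical. In bulk RNA, a smaller number of cells and less RNA per cell cannot be told apart.

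The 3′ UTR class was the largest. The authors' annotation put 6043 peaks (46.9%) in 3′ UTRs, 3442 in other exons and 3406 (26.4%) in 5′ UTRs. The class is that annotation and does not fix the place of a peak within its gene. A KLC1 peak of the 5′ UTR class, for example, was listed 82223 bases from the transcript start. From start to end the peaks had a median of 789 bases, with quartiles at 271 and 2849.5 bases, and the narrowest had 58 bases. Widths are genomic and can span introns, and the 2 widest classes, both over 10000 bases, held 1212 and 59 peaks. The widest, 1316931 bases on chromosome X, was assigned to OTC, which codes for a urea cycle enzyme of liver and has no entry in the expression table, and DYNLT3 within it had a mean of 10.4 FPKM. The next widest were assigned to RPA3 (362244 bases) and DSEL (317849 bases). Peaks in 5′ UTRs were wide, with a median of 1822 bases, against 746 bases in 3′ UTRs and 481 bases in other exons.

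By the biotype of their gene, 10838 peaks (84.1%) fell in protein-coding genes, 520 in long noncoding RNA genes and 365 in pseudogenes. Genes with a peak had a median of 3.29 FPKM over the 9 input libraries. A peak was present in 4.90% of genes under 0.1 FPKM, in 20.1% of those between 0.1 and 1 FPKM, in 48.1% between 1 and 5 FPKM, in 53.5% between 5 and 20 FPKM and in 49.7% above 20 FPKM. The share thus levelled off above 1 FPKM.

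At an authors' p under 0.05, 8258 of the 12891 peaks were called different between TiO2 and control, which is 64.1% of them. Of all peaks, 5193 (40.3%) were called higher under TiO2 and 3065 (23.8%) lower. Most of the differences were small. The median log2 fold change was 0.30 among peaks called higher and -0.28 among those called lower, and over all peaks it was 0.15. An absolute log2 fold change of at least 1 together with p under 0.05 was found in 707 peaks (5.48%), 424 of them higher and 283 lower. At an authors' FDR under 0.05, 5153 peaks (40.0%) remained. Peaks in 3′ UTRs were called most often (71.0%, 2598 higher and 1692 lower), those in 5′ UTRs in 66.9% (1496 higher and 781 lower), and those in other exons in 49.1% (1099 higher and 592 lower).

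**Figure D1:**
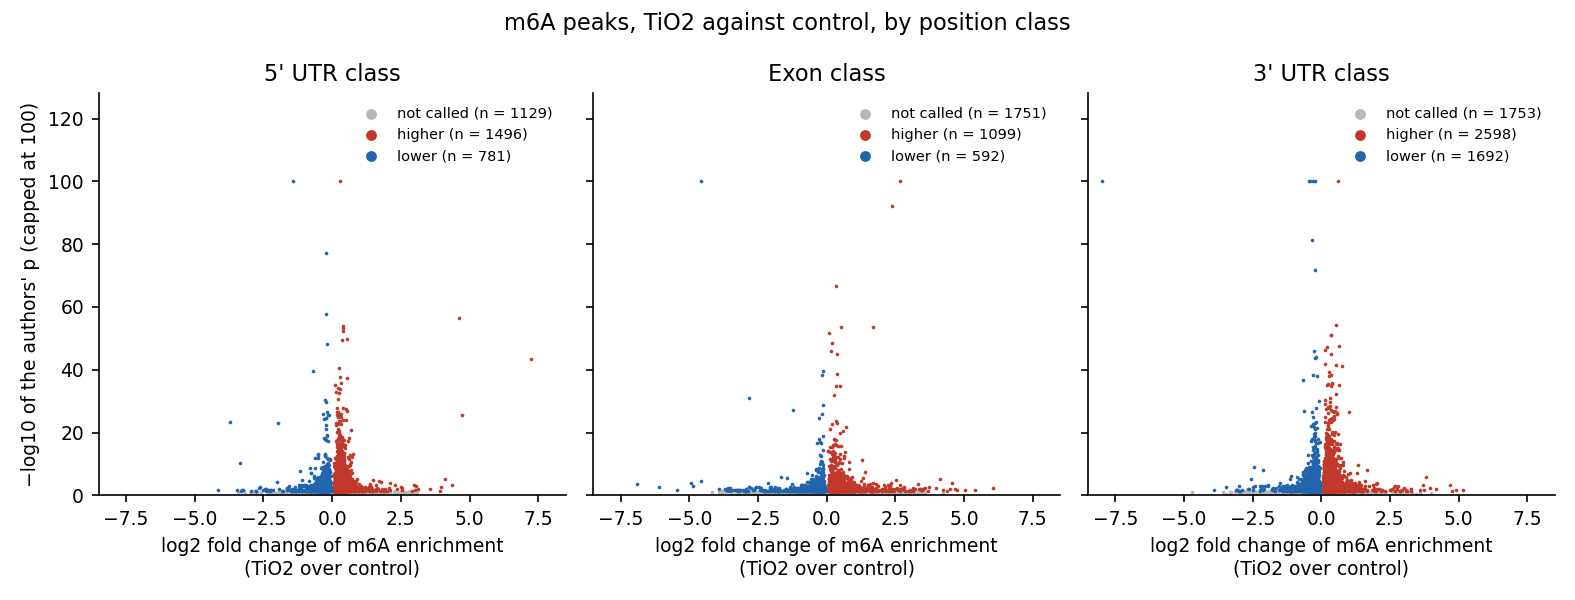
Each point is a peak, with its log2 fold change of m6A enrichment (TiO2 over control) on the x axis and the −log10 of the authors' p, capped at 100, on the y axis, in a panel per position class. Points called higher are red, those called lower blue and those not called grey, and the called peaks with the smallest p mostly have small fold changes in every class.

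Direction went with peak width. Among peaks of at most 200 bases, 153 of 1990 were called higher under TiO2 and 388 lower, so that 28.3% of the called peaks were higher. Above 200 and up to 1000 bases the counts were 1473 higher and 1578 lower of 5096 (48.3% of called peaks higher). Above 1000 and up to 10000 bases they were 2751 higher and 906 lower of 4534 (75.2%), and in the next wider class 780 higher and 187 lower of 1212 (80.7%). Over all peaks, those of at most 200 bases were thus called lower more often than higher, and those above 1000 bases the other way round.

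The direction of called peaks also differed between levels of the assigned gene. Above 20 FPKM, 445 of 1494 peaks were called higher under TiO2 and 746 lower, so that 37.4% of the called peaks were higher. Between 5 and 20 FPKM this share was 60.0% (1632 higher, 1090 lower of 3739), between 1 and 5 FPKM 72.5% (2026 higher, 769 lower of 4296) and between 0.1 and 1 FPKM 72.8% (799 higher, 299 lower of 2240). Under 0.1 FPKM it was 63.4% (236 higher, 136 lower of 983), so the share did not go on increasing towards the lowest levels. Width and level were also read together. In genes above 20 FPKM, 13.1% of called peaks of at most 200 bases were higher, 27.7% of those up to 1000 bases, 52.5% of those up to 10000 bases and 61.8% of those over 10000 bases. In genes between 1 and 5 FPKM the same shares were 35.8%, 58.2%, 82.0% and 86.2%. Within 3′ UTRs they were 23.8%, 44.7%, 77.7% and 84.6%, within 5′ UTRs 21.6%, 46.6%, 72.2% and 79.5%, and within other exons 44.5%, 58.2%, 72.9% and 79.5%. Among peaks of at most 200 bases, genes between 0.1 and 1 FPKM were the exception to the excess of lower calls, with 26 called higher and 20 lower. Above 200 and up to 1000 bases, higher calls outnumbered lower ones in the exon class (429 and 308). In that width class they also did so in genes under 0.1 FPKM (77 and 64), between 0.1 and 1 FPKM (271 and 163) and between 1 and 5 FPKM (535 and 384). The part of sequencing depth and of peak calling in these relations was not tested, as neither has a value per library here.

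**Figure D2:**
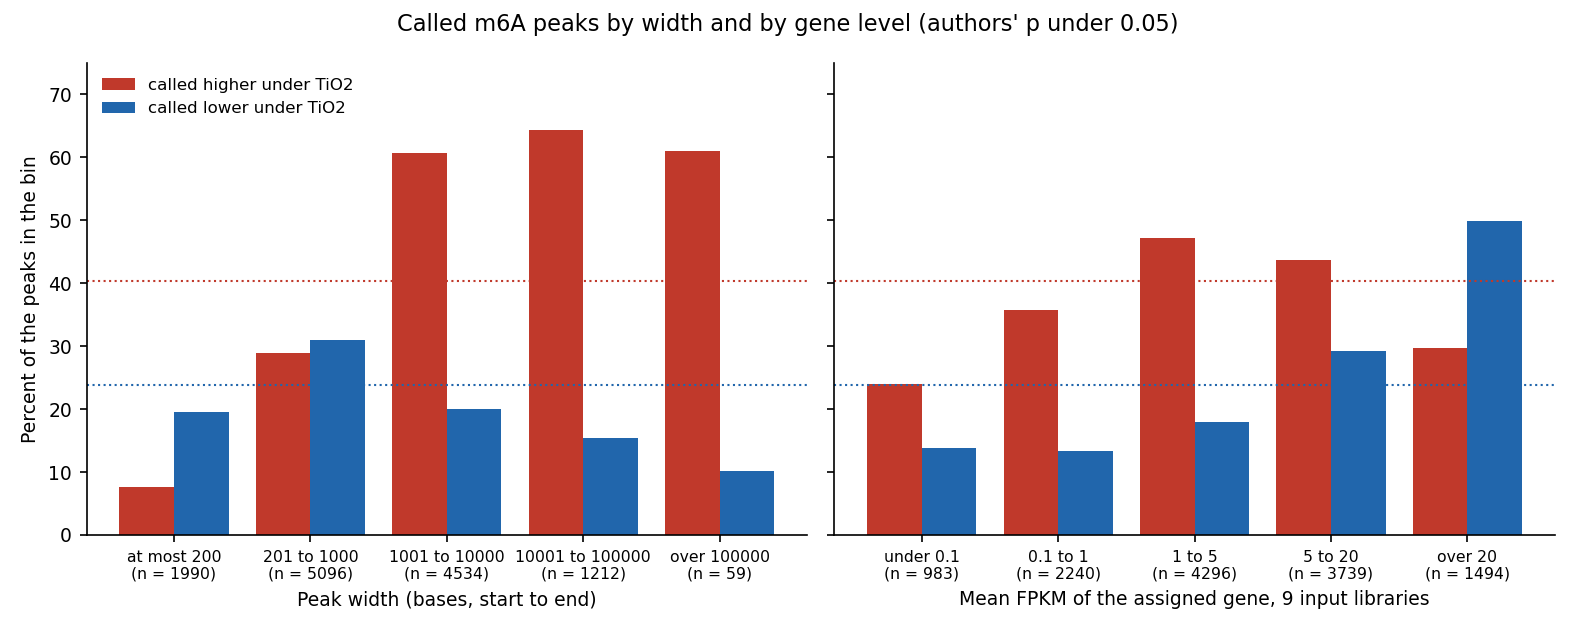
Bars give the percent of the peaks in each bin that were called higher (red) or lower (blue) under TiO2, by peak width in bases on the left and by the mean FPKM of the assigned gene on the right, and dotted lines give the same shares over all peaks. Called-higher peaks outnumber called-lower ones in the bins above 1000 bases, and the order is turned round in genes above 20 FPKM.

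Among genes of at least 1 FPKM, the peaks called higher under TiO2 with the smallest p included those in SHLD2P1, MYC, RANBP2, MSTO1, DBF4, MGAT2 and USP1. MYC codes for a growth-promoting transcription factor whose mRNA is a known m6A target. Its peak of 3144 bases, put in the 5′ UTR class, had a log2 fold change of 0.29 (the authors' p = 1e-126). Input MYC was 1.62, 1.73 and 26.4 FPKM in the TiO2 libraries and 1.65, 33.0 and 28.7 FPKM in the control libraries. The values thus fell at a low and a high level within each group, the groups overlapped, and no change was called (limma adjusted p = 0.542).

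RANBP2 codes for a large protein of the nuclear pore. The RANBP2 peak, 7153 bases in the exon class, had a log2 fold change of 0.34 (the authors' p = 2.51e-67), while the input level was 21.3, 22.9 and 21.8 FPKM under TiO2 and 21.8, 21.6 and 21.3 FPKM in controls, with overlapping groups (limma adjusted p = 0.56). RANBP2 has near-identical relatives elsewhere in the genome, so that reads could be shared.

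DBF4 codes for the activating subunit of the kinase CDC7, which starts DNA replication, USP1 for a deubiquitinase of the Fanconi anaemia pathway, and MGAT2 for a Golgi enzyme of N-glycan branching. The peaks were higher by 0.55 in the DBF4 3′ UTR (the authors' p = 5.01e-55), by 0.52 in a USP1 exon (p = 2e-54) and by 0.40 at the MGAT2 start (p = 1e-54), on the log2 scale. Input USP1 was 35.7, 36.8 and 35.6 FPKM under TiO2 and 32.5, 32.9 and 32.1 FPKM in controls, without overlap, as in 51.7% of the 12224 genes tested, counting both directions (difference in log2(FPKM + 1) of 0.14 ± 0.023 SE, limma with Benjamini-Hochberg adjustment, adjusted p = 0.00208). Input DBF4 was 4.60, 4.45 and 4.68 FPKM under TiO2 and 3.44, 3.94 and 4.04 FPKM in controls. These groups did not overlap either (0.22 ± 0.060, limma adjusted p = 0.0249), but the adjusted p was 0.0636 without TiO2 replicate 1, 0.072 without TiO2 replicate 3 and 0.0607 without control replicate 1. MGAT2 input RNA was not called (limma adjusted p = 0.878).

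The largest fold changes in this group belonged to genes with near-identical copies. The MSTO1 peak at the transcript start, 478 bases with the sequence shown above at its upstream end, had a log2 fold change of 4.62 (the authors' p = 3.16e-57), and MSTO1, which codes for a mitochondrial fusion protein, has the copy MSTO2P. SHLD2P1 is a pseudogene, and its 556-base peak had a log2 fold change of 2.66 (the authors' p = 1e-155). Input SHLD2P1 was 1.71, 0.573 and 1.32 FPKM under TiO2 and 0.312, 0.400 and 3.48 FPKM in controls, with overlapping groups, and the peak also lies over RHEBP1, which had a mean of 16.2 FPKM. Such values are uncertain because reads may have been split between the copies.

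Among the 8 peaks called lower with the smallest p were RPL19, RPL26, RACK1 and EIF3C of the ribosome and of translation initiation, the stimulatory G protein gene GNAS, the tropomyosin gene TPM2, the keratin gene KRT8, and BOLA2B. The RPL19 peak covered 547 bases of the 3′ UTR and had a log2 fold change of -0.41 (the authors' p = 1e-197), and that of RPL26 covered 1660 bases and had -0.25 (p = 1e-161). Input RPL19 was 796, 847 and 869 FPKM under TiO2 and 813, 758 and 736 FPKM in controls, with overlap and no call (limma adjusted p = 0.0947, and 0.0434 without control replicate 1). Input RPL26 was 214, 218.5 and 221 FPKM under TiO2 and 260, 263 and 251 FPKM in controls. All TiO2 libraries were lower (-0.24 ± 0.022 in log2(FPKM + 1), limma adjusted p = 0.000153), so the peak and the transcript of RPL26 were both lower while RPL19 showed a lower peak alone.

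RACK1 codes for a scaffold protein of the small ribosomal subunit. It had a lower peak of 300 bases in its 3′ UTR (-0.34, the authors' p = 3.98e-82) and a higher peak of 11045 bases in the 5′ UTR class (0.28, p = 1.2e-10), and the wider span also holds TRIM52. RACK1 input RNA was 111, 121 and 122 FPKM under TiO2 and 112, 111 and 108 FPKM in controls, with overlap and no call (limma adjusted p = 0.423). TPM2 had a lower peak over its start (-0.22, the authors' p = 7.94e-78), and its input RNA was 113, 111 and 118 FPKM under TiO2 against 131, 131 and 132 FPKM in controls (-0.20 ± 0.028, limma adjusted p = 0.001), with no overlap. The KRT8 peak of 210 bases in the 3′ UTR fell by 0.22 on the log2 scale (the authors' p = 1.58e-72). Its input RNA was 218, 281 and 296 FPKM under TiO2 and 366, 279 and 326 FPKM in controls, with overlapping groups (limma adjusted p = 0.118).

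BOLA2B and EIF3C stand in repeated segments of chromosome 16 and have near-identical copies, so their values are uncertain. The BOLA2B peak, 149 bases in the 3′ UTR, had the lowest log2 fold change of all peaks (-7.99), with a p listed as 0. Its input RNA was 25.3, 24.9 and 41.5 FPKM under TiO2 and 27.0, 28.2 and 25.9 FPKM in controls, and TiO2 replicate 3 stood above the rest. The EIF3C peak had a log2 fold change of -1.44 (the authors' p = 1e-112), and its input RNA was not called (limma adjusted p = 0.158). In the BPQD comparison, which uses the same control libraries, the overlapping peaks gave -2.42 for EIF3C, -0.41 for RPL19, -0.20 for RPL26, -0.48 for GNAS, -0.12 for RACK1, 0.48 for DBF4 and 0.079 for MYC.

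**Figure D3:**
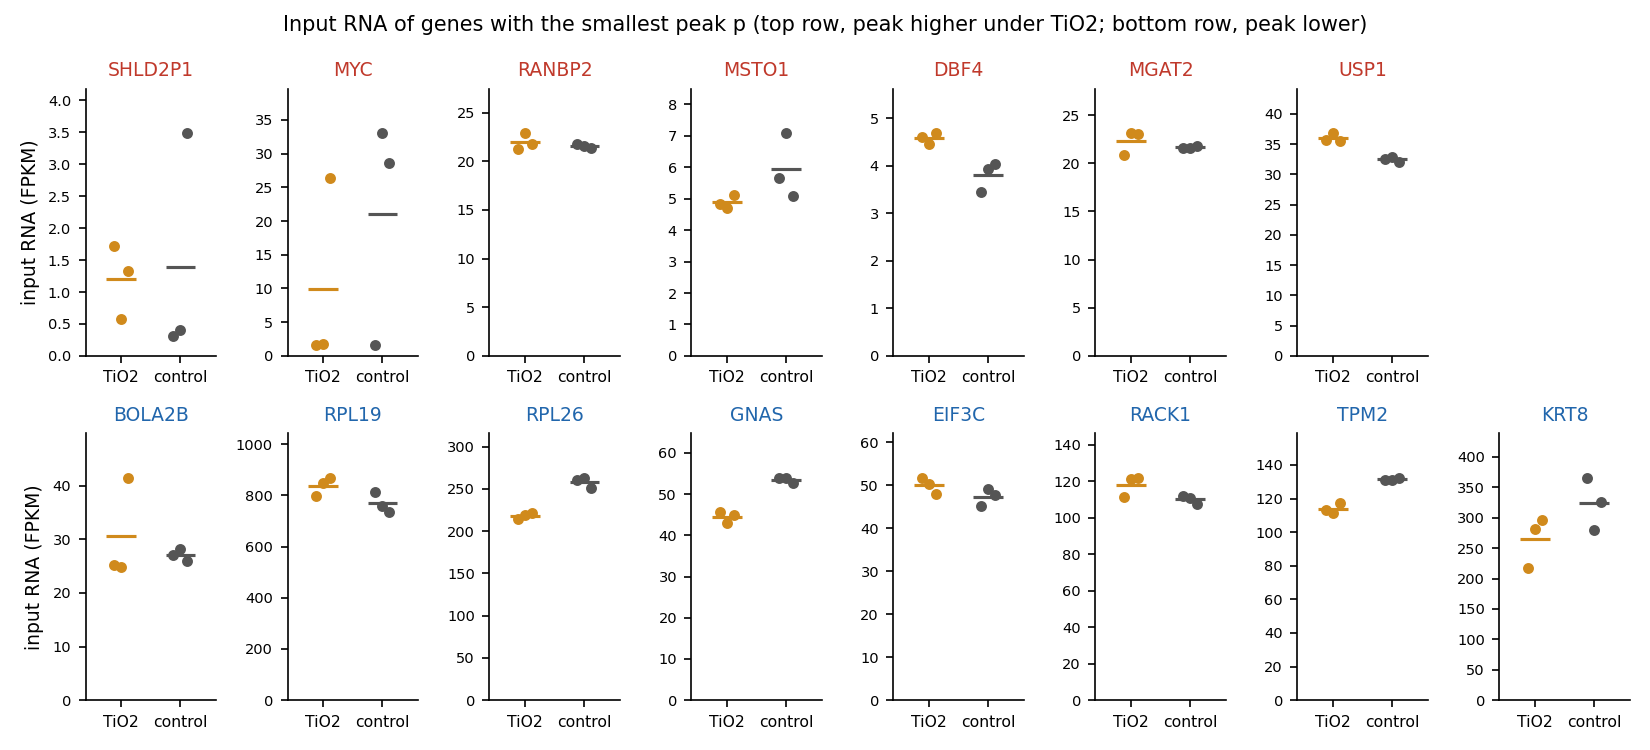
Points are the input FPKM of each library for genes named for the smallest peak p, TiO2 on the left (orange) and control on the right (grey) of each panel, and lines are means of the 3 libraries. In MYC and SHLD2P1 single libraries stand far from the others of their group, while RPL26, GNAS, TPM2 and USP1 show groups that do not overlap.

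Of the 8706 genes, 5821 (66.9%) had a single peak, 2004 had 2, 618 had 3 and 97 had at least 5. Genes with several peaks were longer, with a median span of 69071 bases for those with at least 5 peaks, against 24752.5 bases for those with 1, and the share of peaks called was 64.9% and 63.3% in these groups. Overlapping peaks are included in these counts: 1792 peaks overlapped another of the same gene, and merging left 11941 regions. Of the 1569 genes with at least 2 called peaks, 708 had all of them higher under TiO2, 332 all lower and 529 (33.7%) had both directions. With overlapping peaks merged, both directions were present in 500 of 1193 genes (41.9%). Where a gene had a called peak in each UTR class, 185 of 484 genes were higher in both, 109 lower in both, 115 higher in the 5′ and lower in the 3′ UTR, and 75 lower in the 5′ and higher in the 3′ UTR.

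JPX, a long noncoding RNA gene of the X-inactivation centre, had the most peaks, 12, all in the exon class and some of them overlapping. Of these, 4 were called higher (0.13 to 0.93) and none lower, and the 5 entries below 0, 1 of them repeated, lay between -1.32 and -0.82 and were not called. JPX was 0.906, 0.947 and 0.981 FPKM under TiO2 and 1.20, 1.04 and 1.09 FPKM in controls, which is no call (limma adjusted p = 0.221). SCAND2P, a pseudogene, had 9 peaks, all called higher (0.19 to 1.18) and each overlapping another of them. However, 7 of them lie over WDR73 on the other strand, which had a mean of 3.71 FPKM against 1.20 FPKM under TiO2 and 1.03 FPKM in controls for SCAND2P. KLC1, a kinesin light chain gene, had 8 peaks, some of them overlapping, with 4 called and all 4 higher, and 7 of the 8 also lie over XRCC3. The peaks hold no strand, so the transcript that carried the signal cannot be told apart where genes overlap.

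MUC16 codes for a very large membrane mucin that is known as the tumour marker CA125. It had 9 peaks in its exons, of which 5 were called, all lower, between -0.73 (901 bases, the authors' p = 6.76e-08) and -0.10. The 4 others had values from -0.23 to 0.92. Input MUC16 was 2.06, 2.00 and 2.02 FPKM under TiO2 and 3.90, 3.95 and 3.92 FPKM in controls, so that all TiO2 libraries were well below all controls (-0.70 ± 0.029, limma adjusted p = 5.39e-06). SPG7, which codes for a mitochondrial protease, had 9 peaks, 4 of them called and all higher (0.27 to 1.05), while its input RNA was 1.71, 1.70 and 1.65 FPKM under TiO2 and 2.09, 2.28 and 1.94 FPKM in controls (-0.21 ± 0.052, limma adjusted p = 0.0162, and 0.0504 without TiO2 replicate 3).

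AHNAK codes for a giant scaffold protein of the cell membrane and has a single very long coding exon. Its 4 exon peaks, of 2221 to 4858 bases, were called higher by small amounts (0.07 to 0.12), the smallest p being 7.94e-22, and a peak at its 5′ end was called lower (-0.18, the authors' p = 0.0209). Input AHNAK was 2.65, 62.9 and 62.5 FPKM under TiO2 and 71.2, 70.0 and 70.3 FPKM in controls. The low value of TiO2 replicate 1 decides its call: the log2 difference was -1.54 ± 1.0 (limma adjusted p = 0.268) with it and -0.17 (adjusted p = 0.00113) without it.

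Other genes had called peaks in both directions. GNAS had 5 peaks, with a lower one in the 3′ UTR (-0.45, the authors' p = 1e-117), a lower one at a 5′ UTR (-0.23, p = 1.7e-07) and a higher one of 4385 bases in the exon class (0.58, p = 0.00251). Its input RNA was 45.6, 43.1 and 44.9 FPKM under TiO2 and 54.0, 53.8 and 52.6 FPKM in controls, with no overlap (-0.26 ± 0.026, limma adjusted p = 0.000263). DDX23, which codes for a helicase of the spliceosome, was higher in the 3′ UTR class (0.36, the authors' p = 6.31e-52) and lower in the 5′ UTR class (-0.19, p = 5.13e-07). Its input RNA was 39.6, 39.9 and 40.4 FPKM under TiO2 and 46.9, 47.3 and 45.0 FPKM in controls (limma adjusted p = 0.000623). DNTTIP2, a nucleolar protein gene, was higher in an exon (0.37, the authors' p = 1e-45) and lower in the 3′ UTR (-0.28, p = 0.0102), and its input RNA was higher under TiO2, at 11.3, 11.5 and 11.2 FPKM against 7.97, 7.66 and 8.17 FPKM in controls (0.47 ± 0.036, limma adjusted p = 8.03e-05). CENPF, a kinetochore protein gene, had a higher exon peak (0.17, the authors' p = 1e-46) beside a lower 3′ UTR peak (-0.098, p = 1.91e-05) with input RNA of 35.3, 35.9 and 35.4 FPKM under TiO2 and 36.05, 35.3 and 35.4 FPKM in controls (limma adjusted p = 0.974). DERL2, of the endoplasmic reticulum's degradation machinery, had 3 called peaks, of which the 2 at its 5′ end, 0.54 and -0.25, overlap each other and MIS12.

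**Figure D4:**
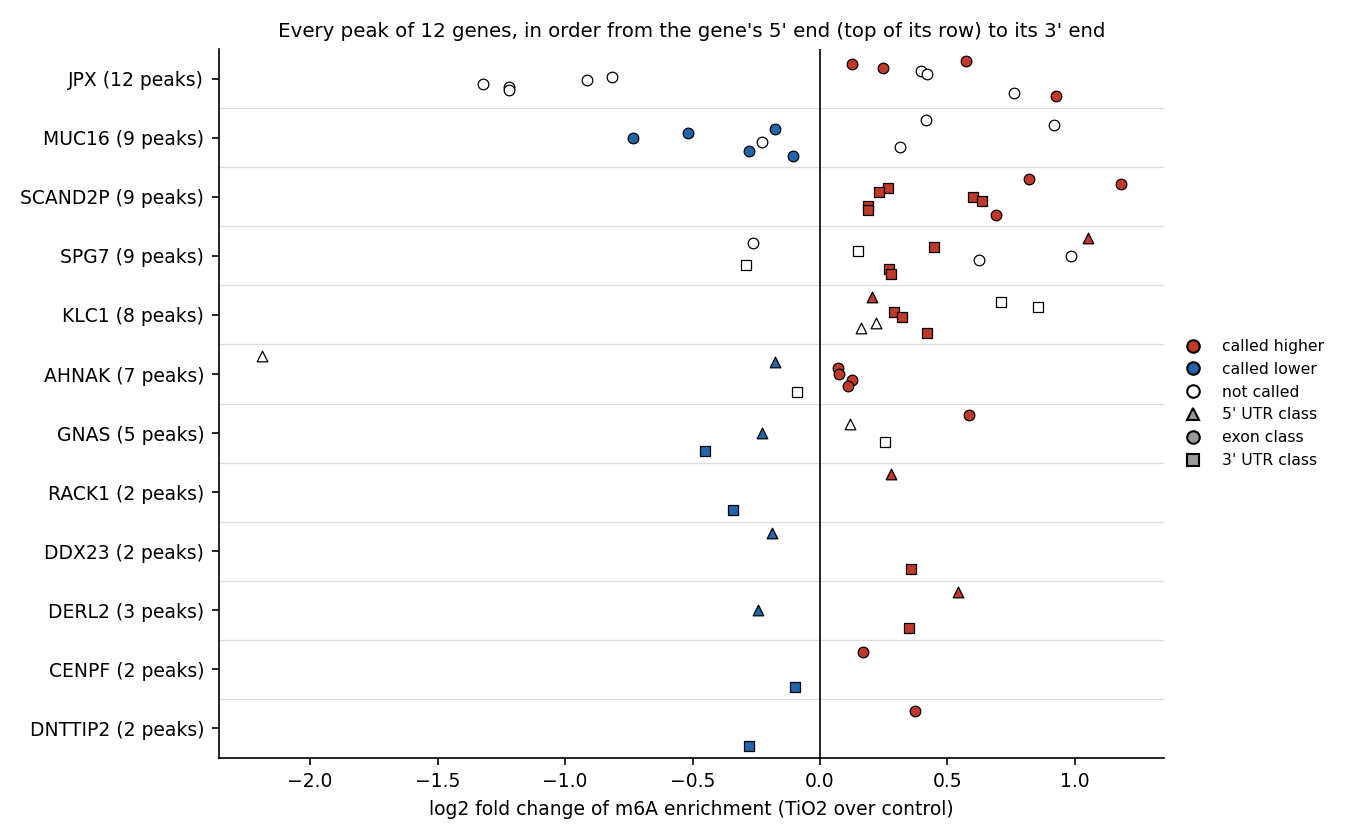
Each row holds all peaks of a gene, the 6 genes with the most peaks above and 6 genes with called peaks in both directions below, with the log2 fold change of m6A enrichment (TiO2 over control) on the x axis and the peaks ordered from the gene's 5′ end (top) to its 3′ end. SCAND2P has called peaks on the higher side alone and MUC16 on the lower side alone, while GNAS, RACK1, DDX23, DERL2, CENPF and DNTTIP2 have both.

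The m6A machinery itself carried peaks. Of 13 writers and cofactors 9 had a peak, with 14 peaks in all, 10 called higher under TiO2 (71.4%) and 3 lower (21.4%), against 40.3% and 23.8% of all peaks. The median over these peaks was 2584.5 bases and 8.14 FPKM. Of all peaks above 1000 and up to 10000 bases in genes between 5 and 20 FPKM, 64.5% were called higher and 23.2% lower. The shares of the writer list are near those of this class. METTL3, the catalytic subunit, had a 383-base peak over its start (0.62, the authors' p = 0.000479). RBM15 and RBM15B, which guide the complex to its targets, had higher peaks at their 5′ ends (0.27, the authors' p = 1.26e-13 and 0.077, p = 8.91e-05), and RBM15 a further one in its 3′ UTR (0.57, p = 2e-04). METTL16, which methylates U6 RNA and MAT2A mRNA, was higher in its 3′ UTR (0.32, the authors' p = 2.51e-14), and VIRMA (0.21), WTAP (0.11) and ZC3H13 (0.17 and 0.077), all scaffold members, were also called higher. CBLL1, a ring-finger partner, had a higher exon peak (0.85, the authors' p = 2.82e-06) and a lower 3′ UTR peak (-0.096, p = 0.011). TRMT112, a cofactor of other methyltransferases, had 2 overlapping lower peaks (-0.22 and -0.34), which also lie over ESRRA.

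The input RNA of writers was called in both directions. Input METTL3 was 8.09, 7.48 and 6.80 FPKM under TiO2 and 6.52, 6.57 and 6.79 FPKM in controls, every TiO2 value above every control value, without a call (0.15 ± 0.056, limma adjusted p = 0.0747, and 0.0154 without TiO2 replicate 3). Of the 13 writers tested, 3 were called higher and 2 lower, against 17.3% of all 12224 genes called higher under TiO2 and 20.5% called lower. ZC3H13 was 8.12, 8.44 and 8.10 FPKM under TiO2 and 7.52, 7.36 and 7.57 FPKM in controls (limma adjusted p = 0.012), and RBM15B 16.8, 16.4 and 17.1 FPKM under TiO2 and 17.7, 18.3 and 18.5 FPKM in controls (limma adjusted p = 0.0144), so that the input RNA of these cofactors moved in opposite directions while their peaks were both higher. CBLL1 was 2.56, 7.67 and 2.53 FPKM under TiO2 and 1.28, 1.34 and 2.29 FPKM in controls, with TiO2 replicate 2 far above the others (limma adjusted p = 0.0838).

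Each eraser had a peak in the 5′ UTR class, and of these only the ALKBH5 peak was found to cover a matched RefSeq start. The FTO peak was called lower (-0.33, the authors' p = 0.0115), and the ALKBH5 peak was not called (0.096, p = 0.0646). Input ALKBH5 was 28.7, 29.0 and 29.7 FPKM under TiO2 and 32.8, 32.8 and 34.9 FPKM in controls, without overlap (-0.19 ± 0.029, limma adjusted p = 0.0017). FTO was 1.02, 2.23 and 0.983 FPKM under TiO2 and 2.36, 1.16 and 2.35 FPKM in controls, with overlapping groups (limma adjusted p = 0.418).

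Of 15 readers 11 had 18 peaks, 7 called higher (38.9%) and 6 lower (33.3%), the higher share being close to the 40.3% of all peaks, of which 23.8% were lower. The cytoplasmic YTH readers had higher peaks: YTHDF1 in the 3′ UTR class (0.096, the authors' p = 4.79e-07), YTHDF2 in the 5′ UTR class (0.24, p = 1.26e-26) and YTHDF3 in the 5′ and 3′ UTR classes (0.21, p = 1.45e-09 and 0.26, p = 0.00295). YTHDC2, a helicase, had a higher 3′ UTR peak (0.67, the authors' p = 0.000224), and the peak of the nuclear reader YTHDC1 was not called (-0.13, p = 0.0891). HNRNPA2B1 was lower at its start and 3′ UTR (-0.14, the authors' p = 0.000182 and -0.058, p = 7.94e-18), as were HNRNPC (-0.069, p = 0.00372), which binds RNA opened by m6A, and EIF3A (-0.19, p = 3.47e-05), a translation initiation factor. IGF2BP3, which stabilises methylated mRNAs, had a higher and a lower exon peak (0.66, the authors' p = 0.0011 and -0.67, p = 6.03e-05) and a lower 3′ UTR peak. Input IGF2BP3 was 13.4, 14.2 and 13.2 FPKM under TiO2 and 11.8, 12.01 and 11.7 FPKM in controls (0.18 ± 0.034, limma adjusted p = 0.0043), and EIF3A 82.0, 81.2 and 78.2 FPKM under TiO2 and 69.5, 69.3 and 70.3 FPKM in controls (limma adjusted p = 0.000374), so that both transcripts were higher where most called peaks were lower. YTHDF3 was 2.03, 6.52 and 1.91 FPKM under TiO2 and 1.78, 5.99 and 6.12 FPKM in controls, a low and a high level within each group (limma adjusted p = 0.592).

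**Figure D5:**
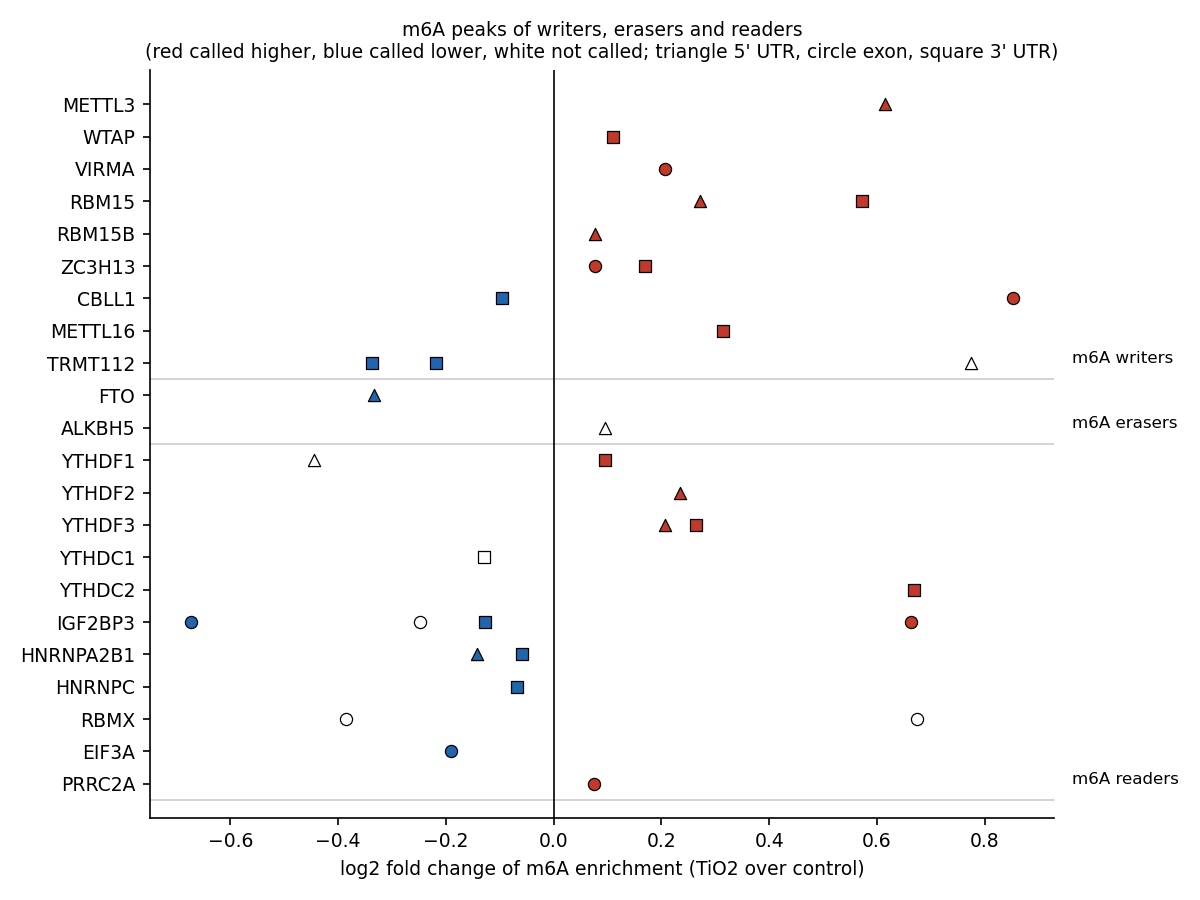
Each row is an m6A writer, eraser or reader gene with a peak, and each symbol a peak at its log2 fold change of m6A enrichment (TiO2 over control), red when called higher, blue when called lower and white when not called, with the shape giving the position class. Of the 13 called peaks in writers 10 lie on the higher side, against 7 of 13 in readers. The median width was 2584.5 bases over all writer peaks and 442 bases over all reader peaks.

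Of 14 transcripts known to carry m6A, 9 had 16 peaks, with 11 called higher under TiO2 (68.8%) and 1 lower (6.25%), against 40.3% and 23.8% of all peaks. In input RNA, 0 of 11 tested were called higher and 1 lower by limma. The noncoding RNA MALAT1 had 3 higher exon peaks (0.18, 0.21 and 0.30, the smallest p being 3.98e-49), and NEAT1, which builds paraspeckles, had a pair of overlapping entries at 0.044 (the authors' p = 6.31e-15). EGFR, the receptor for epidermal growth factor, was higher in its 3′ UTR (0.12, the authors' p = 2e-08) at 28.1 ± 0.36 FPKM under TiO2 and 28.3 ± 0.24 FPKM in controls (SD of 3 libraries each, limma adjusted p = 0.807).

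Among 16 immediate early genes and YAP targets, 9 had 16 peaks, 10 called higher under TiO2 (62.5%) and 1 lower (6.25%), against 40.3% and 23.8% of all peaks, with a median log2 fold change of 0.094, against 0.15 for all peaks. Overlapping entries of IER3 and of YAP1 are counted separately here. The median over these peaks was 1136.5 bases and 17.3 FPKM. Of all peaks above 1000 and up to 10000 bases in genes between 5 and 20 FPKM, 64.5% were called higher and 23.2% lower. The higher share of the list is near that of this class. CCN1, a secreted YAP target, was higher in its 3′ UTR (0.20, the authors' p = 6.31e-15) and lower in its 5′ UTR (-0.32), and its input RNA was 58.4, 59.5 and 60.8 FPKM under TiO2 and 37.2, 36.8 and 36.1 FPKM in controls (0.68 ± 0.027, limma adjusted p = 4.53e-06). IER3, an early response gene, had higher peaks in the 5′ UTR class (0.12, the authors' p = 2.82e-06 for the first). Its input RNA was 46.4, 48.1 and 46.3 FPKM under TiO2 and 27.7, 29.3 and 30.2 FPKM in controls (0.67 ± 0.044, limma adjusted p = 3.85e-05). In both genes all TiO2 libraries were above all controls. JUN (0.15), JUND (0.084), EGR1 (0.32), CCN2 (0.68), LATS2 (0.12) and YAP1 (0.064 and 0.11) made up the rest of the higher peaks.

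All 18 peaks in chaperone and unfolded protein response genes were called, 12 lower under TiO2 (66.7%) and 6 higher (33.3%), against 23.8% and 40.3% of all peaks, with a median log2 fold change of -0.080. These genes are abundant, with a median of 189 FPKM over the peaks, a level at which lower peaks were the more common ones overall. CALR, a chaperone of the endoplasmic reticulum, was lower in its 3′ UTR (-0.082, the authors' p = 7.94e-31) and exon. HSPB1, a small heat shock protein gene, was lower in the 5′ UTR class (-0.12, the authors' p = 2.04e-10). HSPA8, the constitutive HSC70 gene, was higher in its 3′ UTR (0.15, the authors' p = 6.31e-47). Input HSPA8 was 420.3, 423 and 422 FPKM under TiO2 and 320.4, 268 and 327 FPKM in controls (0.47 ± 0.089, limma adjusted p = 0.00487). HSPB1 input RNA was lower under TiO2 (limma adjusted p = 0.00111).

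In the cholesterol synthesis list, most transcripts were called higher and most called peaks lower. Of 24 genes tested, 20 were called higher under TiO2 in input RNA and 1 lower, against 17.3% and 20.5% of all genes tested. Of 22 peaks in 16 genes, 12 were called lower (54.5%) and 6 higher (27.3%), against 23.8% and 40.3% of all peaks. DHCR7 had a lower 3′ UTR peak (-0.31) and a higher 5′ peak (0.38), and FDPS, FDFT1 and EBP had lower 3′ UTR peaks (-0.15 to -0.20, the smallest of the authors' p values being 1.15e-08, for EBP). Input EBP was 20.5, 13.0 and 20.5 FPKM under TiO2 and 15.5, 16.01 and 15.2 FPKM in controls, where TiO2 replicate 2 was below every control and the other 2 above (limma adjusted p = 0.621).

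Membrane and cytoskeleton genes were lower at most of their peaks. Of 32 peaks in 15 endocytosis and cytoskeleton genes, 18 were called lower under TiO2 (56.2%) and 6 higher (18.8%), against 23.8% and 40.3% of all peaks, with a median log2 fold change of -0.19 and a median level of 62.0 FPKM. Of all peaks in genes above 20 FPKM, 49.9% were called lower and 29.8% higher, so the lower share of the list is near that of its level. MYH9, a nonmuscle myosin heavy chain gene, had 4 lower exon peaks (-0.16 to -0.24, the smallest p being 1.58e-13). FLNA (-0.34), PLEC (-0.081 and -0.49), ACTN4 (-0.17 and -0.28), DNM2 (-0.19 and -0.26), CAVIN1 (-0.072 and -0.31), CLTB (-0.28) and RAB7A (-0.18) were lower too. CLTC, the clathrin heavy chain gene, had a higher peak in the 5′ UTR class (0.22, the authors' p = 5.01e-13). Its input RNA was 39.4, 40.9 and 39.0 FPKM under TiO2 and 35.1, 33.98 and 33.4 FPKM in controls (0.21 ± 0.026, limma adjusted p = 0.000602).

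Chromatin regulators, which are long transcripts of moderate level, held 53 peaks in 18 genes, 29 called higher under TiO2 (54.7%) and 18 lower (33.96%), against 40.3% and 23.8% of all peaks, with a median log2 fold change of 0.12. NSD1, a histone methyltransferase, had 4 higher peaks (0.13 to 0.36). KMT2A, another histone methyltransferase gene, had higher peaks in the 5′ UTR and exon classes (0.12 to 0.21) and lower peaks in the 3′ UTR class (-0.18 to -1.10). These classes do not follow the order on the chromosome. The lower peaks of -1.10 and -1.07 start before the higher ones, and that of -0.18 after them. ARID1A, of the SWI/SNF complex, had a higher and a lower 3′ UTR peak (0.20, the authors' p = 1.58e-13, and -0.28), and its input RNA was 6.45, 6.53 and 6.24 FPKM under TiO2 and 7.78, 8.07 and 7.24 FPKM in controls (-0.23 ± 0.041, limma adjusted p = 0.00345). In input RNA, 12 of 21 chromatin regulators were called lower and 0 higher by limma, against 20.5% and 17.3% of all genes tested.

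Among p53 targets and apoptosis genes, 10 of 20 peaks were called higher under TiO2 and 5 lower, or 50% and 25%, near the 40.3% and 23.8% of all peaks. MCL1, an antiapoptotic gene, was higher in its 3′ UTR (0.18, the authors' p = 3.16e-19), with input RNA of 61.2, 61.8 and 63.2 FPKM under TiO2 and 42.6, 52.1 and 42.5 FPKM in controls (0.44 ± 0.071, limma adjusted p = 0.00238). MDM2, the ubiquitin ligase for p53, had 2 overlapping higher 3′ UTR peaks (0.34, the authors' p = 6.31e-13, and 0.31) in a region that also holds CPM. CDKN1A, the cell cycle inhibitor p21, had 2 lower peaks (-0.35 and -0.17).

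In the cell cycle list, 11 of 20 peaks were called lower under TiO2 (55.0%) and 6 higher (30%), against 23.8% and 40.3% of all peaks. The median level over these peaks was 27.3 FPKM. Of all peaks in genes above 20 FPKM, 49.9% were called lower and 29.8% higher, which is near the shares of this list. TOP2A, a topoisomerase of dividing cells, had 3 lower peaks, 2 of them overlapping (-0.28 to -0.39, the smallest p being 1e-18), while its input RNA was 91.9, 94.9 and 91.4 FPKM under TiO2 and 87.0, 87.1 and 86.1 FPKM in controls (0.10 ± 0.019, limma adjusted p = 0.00669). CCND1, which codes for cyclin D1, had 3 lower peaks, 2 of them overlapping (-0.29 to -0.32). MKI67, which codes for the proliferation marker Ki-67, had 2 higher peaks (0.11, the authors' p = 3.98e-16, and 0.048), with input RNA of 38.2, 35.4 and 36.3 FPKM under TiO2 and 42.5, 43.6 and 41.0 FPKM in controls (-0.21 ± 0.038, limma adjusted p = 0.00439). In TOP2A and MKI67 the called peaks and the transcript thus lay on opposite sides.

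DNA repair genes held 24 peaks, 11 called lower under TiO2 (45.8%) and 8 higher (33.3%), against 23.8% and 40.3% of all peaks. The median over these peaks was 465 bases and 9.59 FPKM. Of all peaks above 200 and up to 1000 bases in genes between 5 and 20 FPKM, 40.3% were called lower and 30.2% higher. The shares of the DNA repair list are near those of this class. XRCC2, a gene of homologous recombination, had a higher peak in the 5′ UTR class (0.22, the authors' p = 1.26e-16). Its input RNA was 11.9, 11.45 and 11.1 FPKM under TiO2 and 8.44, 9.003 and 9.10 FPKM in controls (0.34 ± 0.069, limma adjusted p = 0.0063). The MSH6 peaks in the 3′ UTR (0.59, the authors' p = 7.94e-27 for the first) lie over FBXO11 on the other strand. BRCA1 had 3 lower peaks (-0.435 to -0.705) and a higher one in the 5′ UTR class (0.10). A further BRCA1 peak of that class was not called (-0.26). CHEK1 had 2 lower peaks (-0.72 and -0.94).

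In 10 NRF2 target genes, 3 of 16 peaks were called higher under TiO2 (18.8%) and 5 lower (31.2%), against 40.3% and 23.8% of all peaks. In input RNA, 8 of 21 tested genes of this list were called higher and 5 lower by limma, against 17.3% and 20.5% of all genes tested. The called peak of smallest p in the list was higher, in SRXN1 (0.11, the authors' p = 1.2e-05). NQO1, a quinone reductase gene, was lower at its 5′ end (-0.26, the authors' p = 0.000977) with input RNA of 50.4, 50.8 and 50.6 FPKM under TiO2 and 56.4, 56.9 and 55.9 FPKM in controls (-0.15 ± 0.026, limma adjusted p = 0.00281). In the lysosome and autophagy list 16 peaks gave 3 higher (18.8%) and 6 lower (37.5%) calls, against 40.3% and 23.8% of all peaks. CTSL, a lysosomal protease gene, had a lower 3′ UTR peak (-0.15, the authors' p = 1.41e-05), and its input RNA was 164, 167 and 167 FPKM under TiO2 and 80.3, 80.1 and 80.7 FPKM in controls (1.04 ± 0.017 in log2(FPKM + 1), limma adjusted p = 8.91e-08). IFIT3, an interferon-induced gene, had a lower peak of 12975 bases (-0.26, the authors' p = 2.29e-07) that also lies over LIPA, and its input RNA was 11.2, 11.2 and 11.6 FPKM under TiO2 and 4.74, 5.12 and 4.42 FPKM in controls (1.10 ± 0.071, limma adjusted p = 3.74e-05). ICAM1, an adhesion molecule gene induced by NF-kB, had a higher 3′ UTR peak (0.27, the authors' p = 6.31e-05) with input RNA of 28.2, 27.9 and 28.3 FPKM under TiO2 and 19.3, 20.01 and 19.0 FPKM in controls (0.51 ± 0.031, limma adjusted p = 3.04e-05).

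The remaining lists had these counts. ATF4 and amino acid stress genes had 3 of 12 peaks higher under TiO2 and 6 lower, hypoxia and glycolysis genes 2 of 12 higher and 4 lower, growth factor signalling genes 12 of 31 higher and 5 lower, and NF-kB and interferon genes 4 of 10 higher and 2 lower. The higher shares of the growth factor list (38.7%) and of the NF-kB and interferon list (40.0%) were close to the 40.3% of all peaks, and 23.8% of all peaks were lower. Among growth factor genes, MET had a higher peak in the 5′ UTR class (0.17, the authors' p = 1.02e-08). Its input RNA was 33.8, 32.3 and 34.1 FPKM under TiO2 and 29.7, 29.5 and 29.6 FPKM in controls (limma adjusted p = 0.00118). Cytosolic ribosomal protein genes, added after RPL19 and RPL26 had been seen, held 32 peaks in 26 genes, 11 called higher and 11 lower (34.4% each), against 40.3% and 23.8% of all peaks. In input RNA, 45 of these 81 genes tested were called lower and 10 higher, against 20.5% and 17.3% of all genes tested.

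Over all genes, peak and transcript changes were nearly unrelated. Of 12224 genes tested, 4614 (37.7%) were called different between TiO2 and control in input RNA, 2111 higher and 2503 lower. The excess of lower genes depended on scaling. With every library rescaled to the same FPKM sum (TPM), 2269 genes were called higher and 2274 lower. Among the 6150 tested genes with a peak, 968 were called higher (15.7%) and 1457 lower (23.7%), against 1143 (18.8%) and 1046 (17.2%) of the 6074 tested genes without one. Where the peak of smallest p was called higher, 472 genes were called higher and 668 lower of 3083, and where it was called lower, 313 were called higher and 489 lower of 1800. Across the 6150 genes, with 1 peak each, the log2 fold change of the peak and the log2 ratio of mean FPKM had a Pearson correlation of 0.019 and a Spearman correlation of 0.048. The signs were the same in 3108 genes (50.5%). These correlations are across genes, which are not independent replicates, and peak enrichment is itself a ratio to the same input libraries.

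The gene assigned to a peak is not always the most abundant one in its place. The genomic span of another gene with at least 1 FPKM, introns included, overlapped 2295 peaks (17.8%), and in 1485 (11.5%) that gene had more FPKM than the assigned one. In 690 of the 3442 exon peaks the authors' annotation text named another gene than the one assigned. Leaving out the 1485 peaks gave 4512 called higher under TiO2 and 2717 lower of 11406.

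Peaks were also listed on the mitochondrial genome, 4 in 3 genes, and 3 of them were called higher under TiO2 (chosen after their values were seen). MT-ND5, a subunit gene of respiratory complex I, had a higher peak of 239 bases (0.43, the authors' p = 8.71e-05), with input RNA of 11.9, 11.5 and 10.6 FPKM under TiO2 and 13.6, 13.1 and 14.1 FPKM in controls (-0.24 ± 0.050, limma adjusted p = 0.00673). The MT-ND2 peak was higher by 0.16 (the authors' p = 0.0115), and its input RNA was 23.3, 23.5 and 21.7 FPKM under TiO2 and listed at 0, 22.0 and 21.5 FPKM in controls.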

How the data were processed

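Groups were taken from the sample titles. The authors deposited a table of FPKM for 36576 genes in 9 input libraries, per the file headers, and a table of differential peaks that gives a log2 ratio of enrichment, its p-value, and the log10 of the FDR, which is treated as a score, per the file headers. The sources used here name neither the peak caller nor how replicates entered it. The submitters' processing notes name HISAT2 and StringTie 1.3.0 and list the mouse build mm10, but the gene IDs are human, and of 24607 symbols matched to GRCh38.p14 all lay on the same chromosome and 97.8% had their start or end within 1000 bases, so coordinates are read as GRCh38. The 12 FPKM columns of the peak tables were not used. The authors' deposited log2 ratio of mean FPKM was recomputed and matched within 0.001 in 12596 of 12596 peaks that have one.

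Expression was tested with limma 3.58.1 in R 4.3.3 on log2(FPKM + 1), which understates changes of low genes, for 12224 genes whose mean across the 9 input libraries reached 1 FPKM. These libraries shared the estimate of the spread, with a trend, two-sided, at a Benjamini-Hochberg adjusted p under 0.05. The step was tested on simulated data. Depth is unknown, since no counts are given, so precision rests on 3 libraries per group. Python 3.11.15 with pandas 2.3.3, numpy 2.4.6, scipy 1.17.1 and matplotlib 3.10.9 was used for the peaks, which were joined to expression by gene ID. Of the 8706 genes, 8594 had an expression entry.

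Genes were named by a rule: the 8 higher and 8 lower peaks of smallest p in genes of at least 1 FPKM, the 6 genes with most peaks, the 3 widest peaks, up to 3 genes per list with a called peak, m6A writers, erasers, readers and known targets with a peak, and 6 genes with called peaks in both directions. Some genes that the rule names are not reported here. Further list members were named after their values had been seen. The peaks, lists and tests were chosen with earlier results of these data known.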

Additional observations from a re-analysis of the deposited data

How the results depend on the processing

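Counts of called peaks followed the threshold. They were 5485 at the authors' p under 0.01 (1833 lower under TiO2), 5153 at an FDR under 0.05 (3454 higher and 1699 lower), and 707 with an absolute log2 fold change of at least 1 (424 higher and 283 lower). The share of called peaks that were higher, 62.9% of all called, was 66.6%, 67.0% and 60.0% at these thresholds, 61.2% in genes of at least 1 FPKM, 60.4% among peaks of at most 10000 bases and 64.8% with 1 peak per gene. Among called peaks alone, the median width was 1311 bases, 51.9% lay in 3′ UTRs, 27.6% in 5′ UTRs and 20.5% in other exons, and 1569 genes had at least 2. With a minimum of 5 FPKM, 1564 genes were lower in input RNA and 409 of them had a higher peak of smallest p; here fewer genes were tested. The other 138 of 159 alternative values of these results kept within 1.5 times the count or within the interval of the share. The split of input RNA calls by direction still moved. The share of called genes that were higher was 45.8% in the main fit, 49.9% after rescaling to TPM and 50.7% with a minimum of 5 FPKM.

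Replicate numbers were shared between groups, but same-numbered libraries did not deviate together (correlations 0.073, -0.039 and -0.0066), so they share only a number. With the number as a replicate block, 4160 genes were called in input RNA, against 4614. Leaving out each library in turn gave 3754 to 4005 called genes. Of 98 named genes tested, 9 lost their call and 9 gained one under at least 1 alternative, and none changed direction. Positions by overlap with a reference annotation of UTRs were not run. Alternatives that merge overlapping peaks or leave out peaks under a more expressed gene were chosen after seeing the data.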
